A study of Mus musculus with 24 samples.

Results

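The enzymes described here make serine from glucose or carry its 1-carbon unit on folate through the cytosol and the mitochondria. They are Phgdh, Psat1, Psph, Shmt1, Shmt2, Mthfd1, Mthfd1l, Mthfd2, Mthfd2l and Aldh1l2, and the rows bearing those 10 symbols were taken from a table of 55416 gene rows. All 10 were found, and all 10 were among the 17736 genes that passed a filter on low counts and were tested. The group was chosen by function and with the earlier Ethanol over Control fold changes of these same animals known, so the fold changes of its members are given as a description, with a note of which passed the test across all genes and no p-values.

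RNA was sequenced from 24 C57BL/6J mouse pups, each its own animal by label, of which 12 were treated with Ethanol and 12 were vehicle Controls. Ethanol pups received ethanol in intralipid by intragastric gavage on P4, or on P4 and P5, and Control pups received intralipid with water in place of ethanol on the same days. Tissue was taken a day after the last dose, at P5 or P6, and is labelled Brain; the study's methods give it as cerebellum. The labels do not say how old each pup was, its sex or its litter, so both ages were compared together. Libraries held 26982564 to 38804942 estimated counts in Ethanol pups and 29039888 to 38696615 in Control pups, and levels are given as CPM, the counts of a gene relative to the scaled total of its library. All 8 markers of granule neuron precursors and all 6 of Purkinje cells, both cerebellar cell types, were among the genes tested. Passing the filter on low counts does not by itself show which brain region was taken. The choroid plexus transcript Ttr was nearly missing from 4 libraries, Ethanol X4568 and X4766, at 3.57 and 3.42 CPM, and Control X4761 and X4770, at 2.61 and 1.15 CPM, against 322 to 5049 CPM in the other 10 Ethanol animals and 712 to 5031 CPM in the other 10 Controls. The tissue was sequenced whole, so fewer cells of a type and less RNA per cell cannot be told apart.

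In the serine synthesis pathway a glycolytic intermediate is oxidized by PHGDH, transaminated by PSAT1 and dephosphorylated by PSPH. Serine hydroxymethyltransferases, SHMT1 in the cytosol and SHMT2 in mitochondria, then move a carbon from serine to tetrahydrofolate and release glycine. In mitochondria that carbon is oxidized by MTHFD2 or MTHFD2L and released as formate by MTHFD1L, or lost as carbon dioxide through ALDH1L2, and in the cytosol MTHFD1 places the formate back on folate for purine and thymidylate synthesis. Brain PHGDH is found mainly in astrocytes and radial glia, and inherited lack of the serine synthesis enzymes in humans leaves the brain small. In mammalian cells several of these genes, among them Phgdh, Psat1, Shmt2, Mthfd2 and Aldh1l2, are known targets of the transcription factor ATF4.

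Promoter stretches of 4 members are shown because they belong to the 3 members with the highest levels and to Mthfd2, the member with the largest difference. Each is the 110 bases just before the RefSeq transcript start, 5′ to 3′ on the gene's strand (minus for all 4), on GRCm38.p6. The RefSeq table held 2 promoters of Psat1, of which the first listed is shown, and no promoter of Aldh1l2. The capitals mark a CCAAT box, the element bound by NF-Y, on either strand (CCAAT or ATTGG). Mthfd2 lies at chr6:83317605-83317714, Psat1 at chr19:15925060-15925169, Phgdh at chr3:98339970-98340079 and Shmt2 at chr10:127522445-127522554.
Mthfd2: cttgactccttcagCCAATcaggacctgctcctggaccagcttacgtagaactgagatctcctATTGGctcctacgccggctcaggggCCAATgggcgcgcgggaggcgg
Psat1: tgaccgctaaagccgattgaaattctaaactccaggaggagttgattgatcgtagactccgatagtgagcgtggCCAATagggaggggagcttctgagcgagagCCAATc
Phgdh: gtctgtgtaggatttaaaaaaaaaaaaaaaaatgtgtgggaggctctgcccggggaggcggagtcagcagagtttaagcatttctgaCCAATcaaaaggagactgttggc
Shmt2: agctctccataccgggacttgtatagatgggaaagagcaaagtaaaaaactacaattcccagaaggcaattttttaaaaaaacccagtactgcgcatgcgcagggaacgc
The stretch of Mthfd2 carried 3 CCAAT boxes, that of Psat1 2, that of Phgdh 1, and that of Shmt2 held none of these letters. Over the full window of 250 bases before to 50 after the start, a CCAAT box was present in 6 of the 9 members with a promoter in the RefSeq table (Phgdh, Psat1, Psph, Shmt1, Mthfd1 and Mthfd2), against 41.1% of all genes. The letters TGATGNAA, the core of the composite element bound by C/EBP and ATF proteins, were found in 0 of the 9 members, against 4.51% of all genes, and the E-box CACGTG in 0 of the 9, against 8.09%. The GC box GGGCGG was present in 6 of the 9, against 38.2% of genes. Psat1 counts toward both boxes, but its CCAAT boxes lie only in the promoter shown and its GC boxes only in the other. Both strands were searched for every motif, and a match or its lack in this window is a description of letters, not of binding. The CCAAT box was found both in members that were past the test between treatments, Phgdh, Psat1 and Mthfd2, and in members that were not, Psph, Shmt1 and Mthfd1.

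Of the 10 enzymes, 5 were higher in Ethanol cerebellum and past the test across all genes (edgeR's quasi-likelihood test, adjusted p under 0.05), namely Mthfd2, Aldh1l2, Shmt2, Psat1 and Phgdh. Among all genes tested, 9.07% were past the test and higher, and 5.8% were past it and lower, 14.9% in all. The other 5, Mthfd1l, Mthfd2l, Shmt1, Psph and Mthfd1, did not pass. The median log2 fold change of the 10 members was 0.13, against -0.01 over all genes tested. By role, 2 of 3 serine synthesis enzymes, 1 of 2 hydroxymethyltransferases, 2 of 4 further mitochondrial folate enzymes and 0 of 1 cytosolic folate enzymes were past the test.

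**Figure D1:**
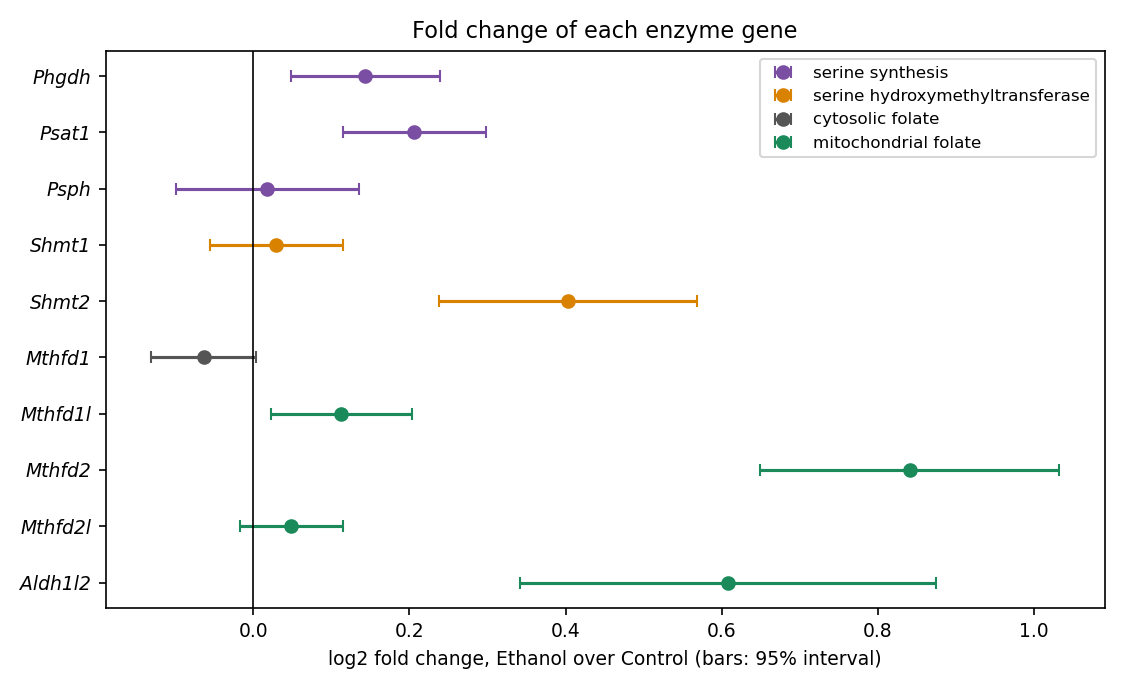
Log2 fold change of each member, Ethanol over Control, on the horizontal axis, with 95% intervals over 12 Ethanol and 12 Control animals; color gives the step the enzyme belongs to. Mthfd2 lies farthest right at 0.84, followed by Aldh1l2 at 0.61 and Shmt2 at 0.40, and Mthfd1 lies at -0.06.

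Phgdh, which catalyzes the first step of serine synthesis, ranged over 267 to 346 CPM in Ethanol animals (median 297.5) and over 220.4 to 301 CPM in Control animals (median 275). The groups overlapped widely, with 5 of 12 Ethanol animals above the highest Control, and the lowest value of all was Control X4768. The mean was 301 ± 24.8 CPM in Ethanol animals and 273 ± 22.4 in Controls (SD, n = 12 each), a log2 fold change of 0.14 (SE 0.05). This difference was the least secure of the 5. It did not pass the test with upper-quartile scaling (log2 fold change 0.13) or without the 4 libraries low in choroid plexus RNA (0.15), and it was lost in 10 of 24 fits that each left out 1 animal. Those animals were Ethanol X4568, X4569, X4673, X4758 and X4760 and Control X4686, X4695, X4697, X4762 and X4770.

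Psat1, the aminotransferase of the next step, ranged over 180.4 to 236 CPM in Ethanol animals (median 202) and over 154 to 191 CPM in Controls (median 179.9). All 12 Ethanol animals were above the Control median and 8 were above the highest Control. Ethanol X4758 was highest, and Control X4768, the lowest Control for Phgdh, was lowest here also. The log2 fold change was 0.21 (SE 0.04).

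Psph, the phosphatase that ends the pathway, had 15.0 to 22.8 CPM in Ethanol animals (median 17.8) and 15.2 to 19.9 CPM in Controls (median 18.1). The ranges lay almost on top of each other except for Ethanol X4760, the only animal above the highest Control, and 5 Ethanol animals were above the Control median. The log2 fold change was 0.02, with a 95% interval from -0.10 to 0.14.

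Shmt2, the mitochondrial hydroxymethyltransferase, ranged over 113 to 228 CPM in Ethanol animals (median 159) and over 113 to 132 CPM in Controls (median 126). All but 1 of the 12 Ethanol animals were above every Control, while Ethanol X4674 was just below the lowest Control, X4571. The means were 165 ± 32.3 CPM in Ethanol animals and 125 ± 5.3 CPM in Controls, a log2 fold change of 0.40 (SE 0.08). Shmt1, its cytosolic counterpart, had 22.9 to 28.5 CPM in Ethanol animals (median 25.7) and 22.2 to 27.7 CPM in Controls (median 25.6). Its groups overlapped over nearly their whole range, and its log2 fold change was 0.03 with an interval from -0.06 to 0.11.

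Mthfd2, the mitochondrial dehydrogenase and cyclohydrolase that is abundant in embryonic and dividing cells, was the only member whose groups did not overlap. It ranged over 25.4 to 51.6 CPM in Ethanol animals (median 37.1) and over 18.5 to 22.6 CPM in Controls (median 20.8). Of all genes tested, 0.124% had every Ethanol animal above every Control and 0.0507% every Ethanol animal below, 0.175% in all. Ethanol X4692 was highest, and X4766, X4674 and X4673 were the lowest of the Ethanol animals, at 25.4, 25.8 and 27.7 CPM. The means were 37 ± 8.07 CPM in Ethanol animals and 20.7 ± 1.21 CPM in Controls (SD, n = 12 each), 1.79-fold higher in Ethanol (log2 fold change 0.84, SE 0.09).

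Its paralog Mthfd2l, which catalyzes the same mitochondrial step, had 17.4 to 20.5 CPM in Ethanol animals (median 18.5) and 16.6 to 19.3 CPM in Controls (median 18.1). The groups overlapped, with 3 Ethanol animals above the highest Control. The log2 fold change was 0.05, with an interval from -0.02 to 0.11. In Controls the paralogs were close per length of transcript, at 9.92 ± 0.58 CPM per kb for Mthfd2 and 8.37 ± 0.33 for Mthfd2l, and in Ethanol animals they stood at 17.8 ± 3.87 and 8.65 ± 0.42 CPM per kb.

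Aldh1l2, which oxidizes formyl-folate in mitochondria, ranged over 22.5 to 70.6 CPM in Ethanol animals (median 40.4) and over 25.3 to 30.2 CPM in Controls (median 27.6). The groups overlapped little, with 10 Ethanol animals above every Control, X4760 highest, X4674 at 26.8 CPM inside the Control range and X4673 below it. The means were 42.3 ± 13.1 CPM in Ethanol animals and 27.8 ± 1.62 CPM in Controls, 1.52-fold higher in Ethanol (log2 fold change 0.61, SE 0.13). Mthfd1l, the synthetase that releases formate from mitochondria, had 22.7 to 29.9 CPM in Ethanol animals (median 24.9) and 20.8 to 25.1 CPM in Controls (median 23.6). Of the Ethanol animals 5 were above the highest Control, with X4758 highest, and the log2 fold change was 0.11 (SE 0.04), which did not pass the test across all genes.

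Mthfd1, the cytosolic enzyme that joins the formate to folate and passes the carbon on, was the only member with a negative fold change. It had 65.9 to 80.4 CPM in Ethanol animals (median 72.1) and 67.5 to 80.9 CPM in Controls (median 75.7). Only 2 Ethanol animals were above the Control median. The log2 fold change was -0.06 (SE 0.03) and did not pass the test.

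**Figure D2:**
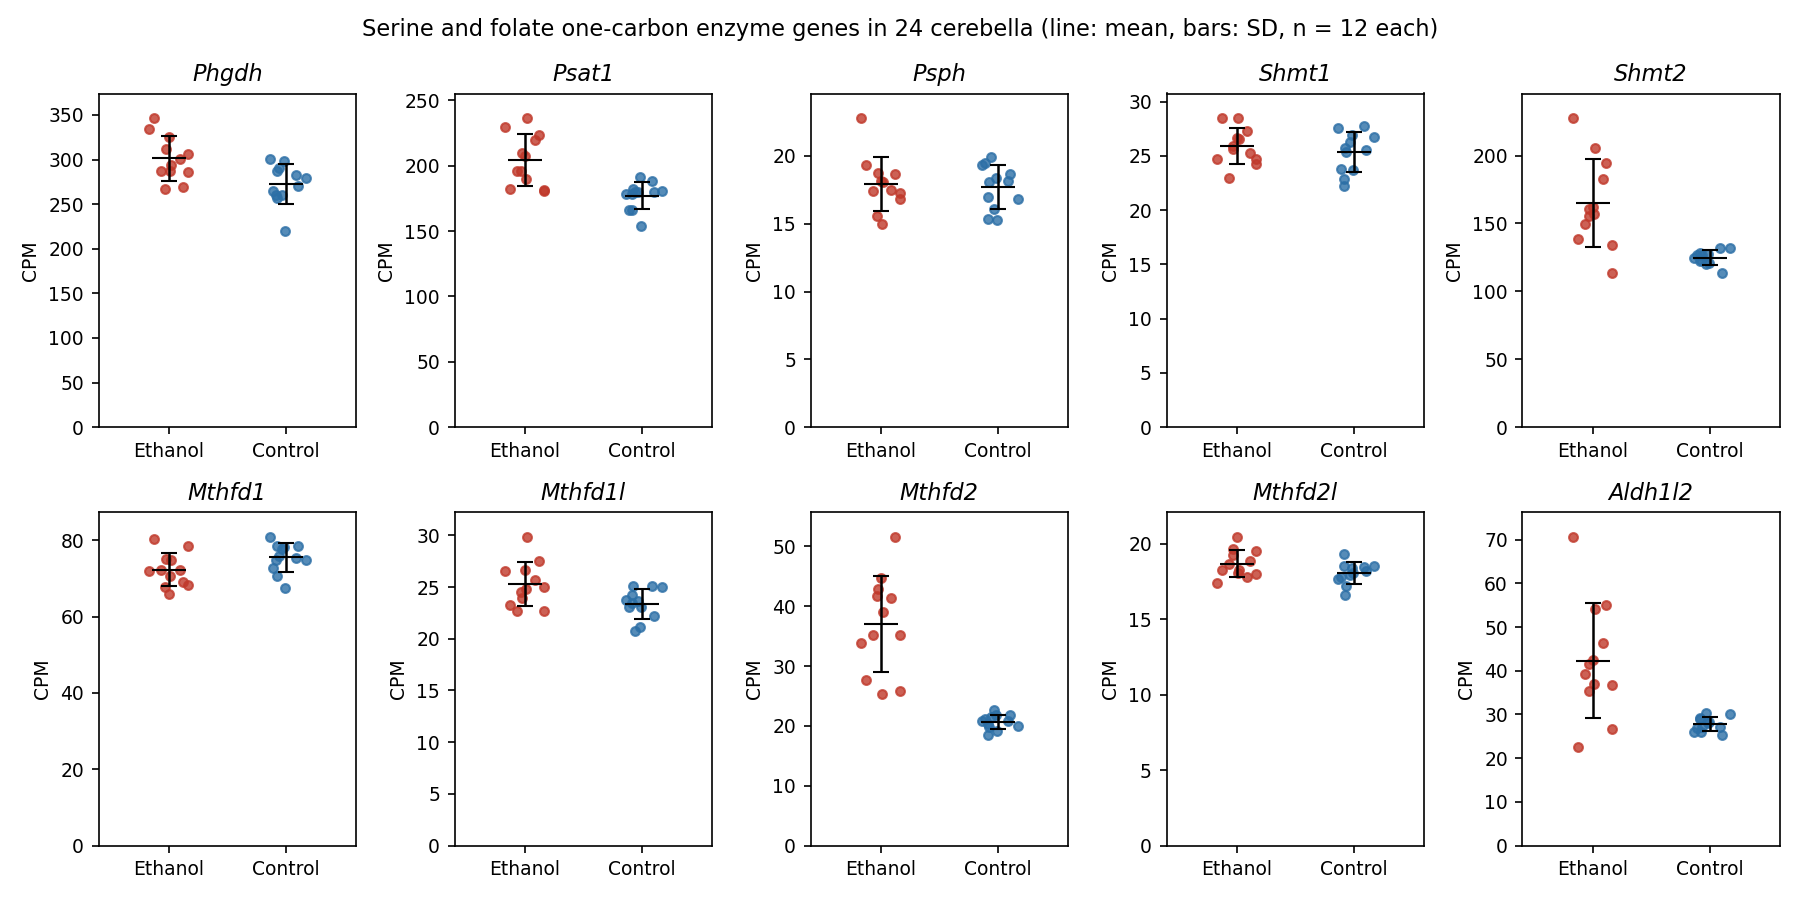
Level of each member in CPM (vertical axes, from 0, a scale per gene) in each of the 12 Ethanol (left) and 12 Control (right) animals, 1 point per animal with the mean and SD. The Control points of Mthfd2, Shmt2 and Aldh1l2 form narrow bands at 18.5 to 22.6, 113 to 132 and 25.3 to 30.2 CPM, and the Ethanol points spread more widely, all above the band for Mthfd2, and with 1 animal below it for Shmt2 and 1 inside and 1 below it for Aldh1l2.

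Per length of transcript, Phgdh was the most abundant member in both treatments, at 159 ± 13.1 CPM per kb in Ethanol animals and 144 ± 11.8 in Controls. Psat1 followed at 78.1 ± 7.55 CPM per kb in Ethanol animals and 67.7 ± 3.91 in Controls, and Shmt2 at 72.2 ± 14.1 and 54.6 ± 2.31 CPM per kb. Psat1 and Shmt2 were apart by more than their spread in Controls and within it in Ethanol animals. Mthfd1 came next, at 22.3 ± 1.34 CPM per kb in Ethanol animals and 23.3 ± 1.17 in Controls. Psph, Mthfd2, Shmt1 and Mthfd2l lay between 8.37 and 10.2 CPM per kb in Controls. Psph and Mthfd2 were within each other's spread there, and Shmt1 and Mthfd2l were apart by less than the SD of Shmt1, while Mthfd2 at 9.92 ± 0.58 and Shmt1 at 8.88 ± 0.64 were apart by more than 1 SD. Mthfd1l and Aldh1l2 were lowest at 6.34 and 4.61 CPM per kb. In Ethanol animals Mthfd2 stood above Psph, and Aldh1l2, at 7.02 ± 2.17 CPM per kb, could not be separated from Mthfd1l, at 6.85 ± 0.58.

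The animals of a treatment were not equally alike. The coefficient of variation of Aldh1l2 was 30.8% over Ethanol animals and 5.82% over Controls, that of Shmt2 19.6% and 4.24%, and that of Mthfd2 21.8% and 5.83%. These 3 genes varied at least 3 times as much among Ethanol as among Control animals, as 0.671% of all genes tested did, with ratios of 5.29, 4.62 and 3.74, of which the last was above that of 99.8% of genes. Psat1 had a smaller excess, 9.66% over Ethanol animals and 5.77% over Controls. Phgdh varied alike in both, with 8.24% over Ethanol animals and 8.2% over Controls, and Shmt1 slightly less in Ethanol animals. A ratio above 1 was found for 9 of the 10 members and for 62.6% of all genes tested. These ratios come from the libraries of the contrast that chose the members and were not tested.

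The animals, sorted by number, were cut into 6 runs of 4, each of which held 2 Ethanol and 2 Control animals. The numbers have gaps within runs as well as between them, and no source used here says what the runs stand for. The differences by run reuse the contrast that chose the members, so they are given as a description. The log2 difference of Mthfd2, Ethanol minus Control, was positive in all 6 runs, at 0.87, 0.36, 0.84, 1.16, 0.88 and 0.73. Because its groups did not overlap, any such cut would give a positive difference for Mthfd2. Aldh1l2 differed by 0.59, -0.13, 0.41, 0.77, 1.14 and 0.51 and Shmt2 by 0.30, 0.00, 0.32, 0.47, 0.77 and 0.42. The run of X4673, X4674, X4677 and X4679 showed no excess of Aldh1l2, Shmt2 or Psat1 (-0.04) and the smallest one of Mthfd2, and the run of X4758 to X4762 had the largest of Aldh1l2, Shmt2 and Psat1 (0.40). Phgdh was higher in Ethanol animals in 6 of 6 runs, by 0.03 to 0.24, and Psat1 in 5 of 6. With the runs as a block in the fit the same 5 members were past the test.

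**Figure D3:**
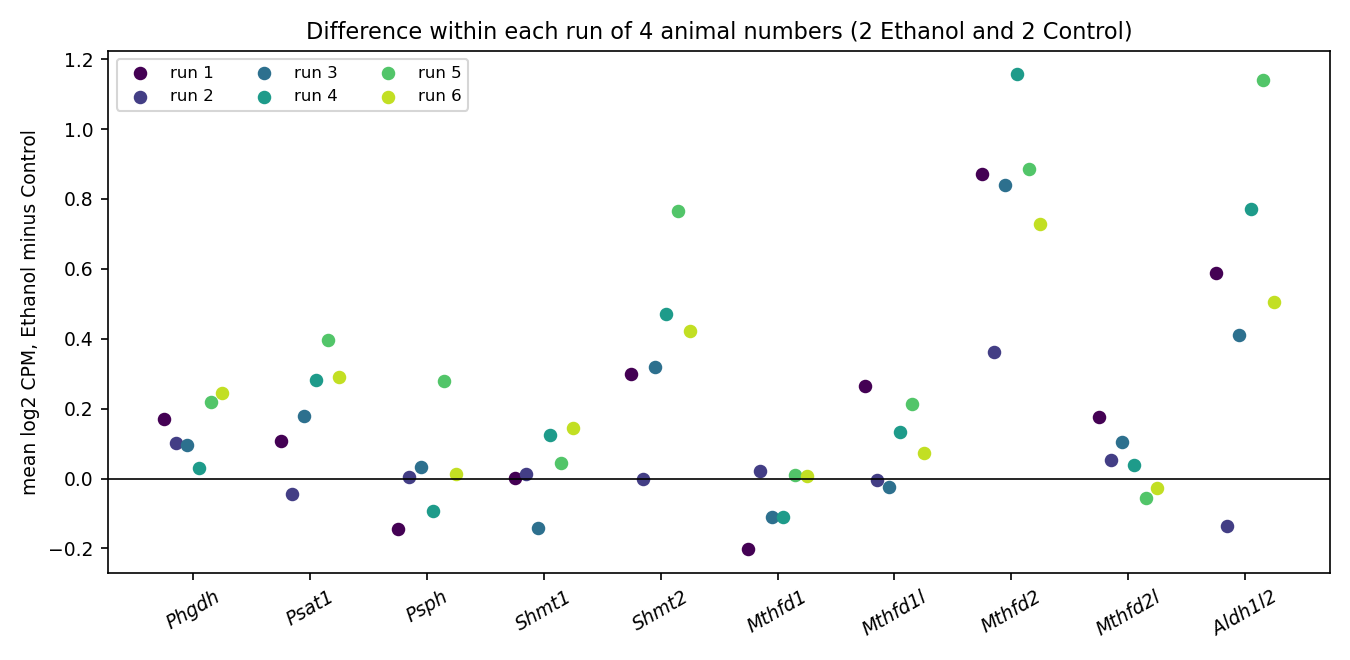
Mean log2 difference, Ethanol minus Control (vertical axis), of log2 CPM for each member (horizontal axis), with a point for each of the 6 runs of 4 animals, cut from the sorted animal numbers, in its own color; each point rests on 2 Ethanol and 2 Control animals. Mthfd2 stays above 0 in all 6 runs, as any such cut would give for groups that do not overlap. Aldh1l2 and Shmt2 are at -0.13 and 0.00 in the run of X4673 to X4679 and at 1.14 and 0.77 in that of X4758 to X4762.

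Whether the members varied together from animal to animal within a treatment was asked of all 45 pairs in each treatment, 90 relations in all, with log2 CPM, a two-sided permutation test of Pearson's r and adjustment over the 90. In Ethanol animals 6 pairs were past an adjusted p of 0.05, all positive, and they were the 6 pairs among Psat1, Shmt2, Aldh1l2 and Mthfd1l. Psat1 and Shmt2 were the closest pair, with r = 0.93 (permutation p = 1e-05, the smallest the permutations can give, adjusted p = 0.0009) and rho = 0.94 (permutation p = 2e-05, adjusted p = 0.0009, n = 12). Without the 2 animals farthest from the median of Psat1 its r was 0.89, and with the means of the runs taken out it was 0.78. Shmt2 and Aldh1l2 had r = 0.90 (permutation p = 0.0001, adjusted p = 0.0045) and rho = 0.93 (permutation p = 1e-05, adjusted p = 0.0009), with r = 0.83 without 2 such animals and r = 0.53 within runs. Psat1 and Aldh1l2 had r = 0.85 (permutation p = 0.00017, adjusted p = 0.0051) and rho = 0.85 (permutation p = 0.00096, adjusted p = 0.0288), with r = 0.79 without 2 such animals and 0.57 within runs. These were the 3 Ethanol pairs that passed with Spearman's rho also. In both treatments the permutations took the 12 animals as exchangeable, although they mix P5 and P6 pups and may hold littermates. The part of age, number of doses and litter in the correlations was not tested. The share of pairs among other genes that would pass in these animals was not measured. Whether the counts of pairs in either treatment are particular to these enzymes therefore cannot be said.

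The 3 pairs with Mthfd1l passed by Pearson's r only. Their adjusted p was 0.0237 with Psat1 (r = 0.80), 0.0237 with Shmt2 (r = 0.79) and 0.0425 with Aldh1l2 (r = 0.76) by permutation, and 0.105, 0.0569 and 0.0733 for rho. For Mthfd1l and Aldh1l2, r was 0.09 once the means of the runs were taken out. Leaving out the 4 libraries low in choroid plexus RNA took this pair to a permutation adjusted p of 0.0823. Mthfd2 was in none of the 6 pairs. With Psat1 it had r = 0.63 in Ethanol animals (permutation p = 0.0319, adjusted p = 0.159) and rho = 0.55 (permutation p = 0.0675, adjusted p = 0.376), but r = 0.83 without the 2 animals farthest from the median and r = 0.94 with the means of the runs taken out, the highest within-run value of the 45 Ethanol pairs. The within-run values were not tested. Each rests on 2 animals of a treatment in each of 6 runs, too few to say whether a relation holds within runs.

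Among Control animals 4 pairs passed by Pearson's r, none of them a pair that passed in Ethanol animals, although Psat1 was in both sets. Phgdh was correlated with Psat1 (r = 0.84), Mthfd1 (r = 0.83) and Psph (r = 0.73), and Psat1 with Mthfd1 (r = 0.82), with permutation adjusted p of 0.0237, 0.0237, 0.0395 and 0.0237. Without the 2 animals farthest from the median, r was 0.73, 0.54, 0.58 and 0.55, and with the means of the runs taken out it was 0.73, 0.81, 0.77 and 0.87. By rank, 0 of the 45 Control pairs passed by permutation of Spearman's rho, although 7 had an unadjusted p under 0.05. The pair of Phgdh and Psph did not pass without the 4 libraries low in choroid plexus RNA (adjusted p = 0.0681). Whether a coefficient differed between Ethanol and Control animals was not tested.

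**Figure D4:**
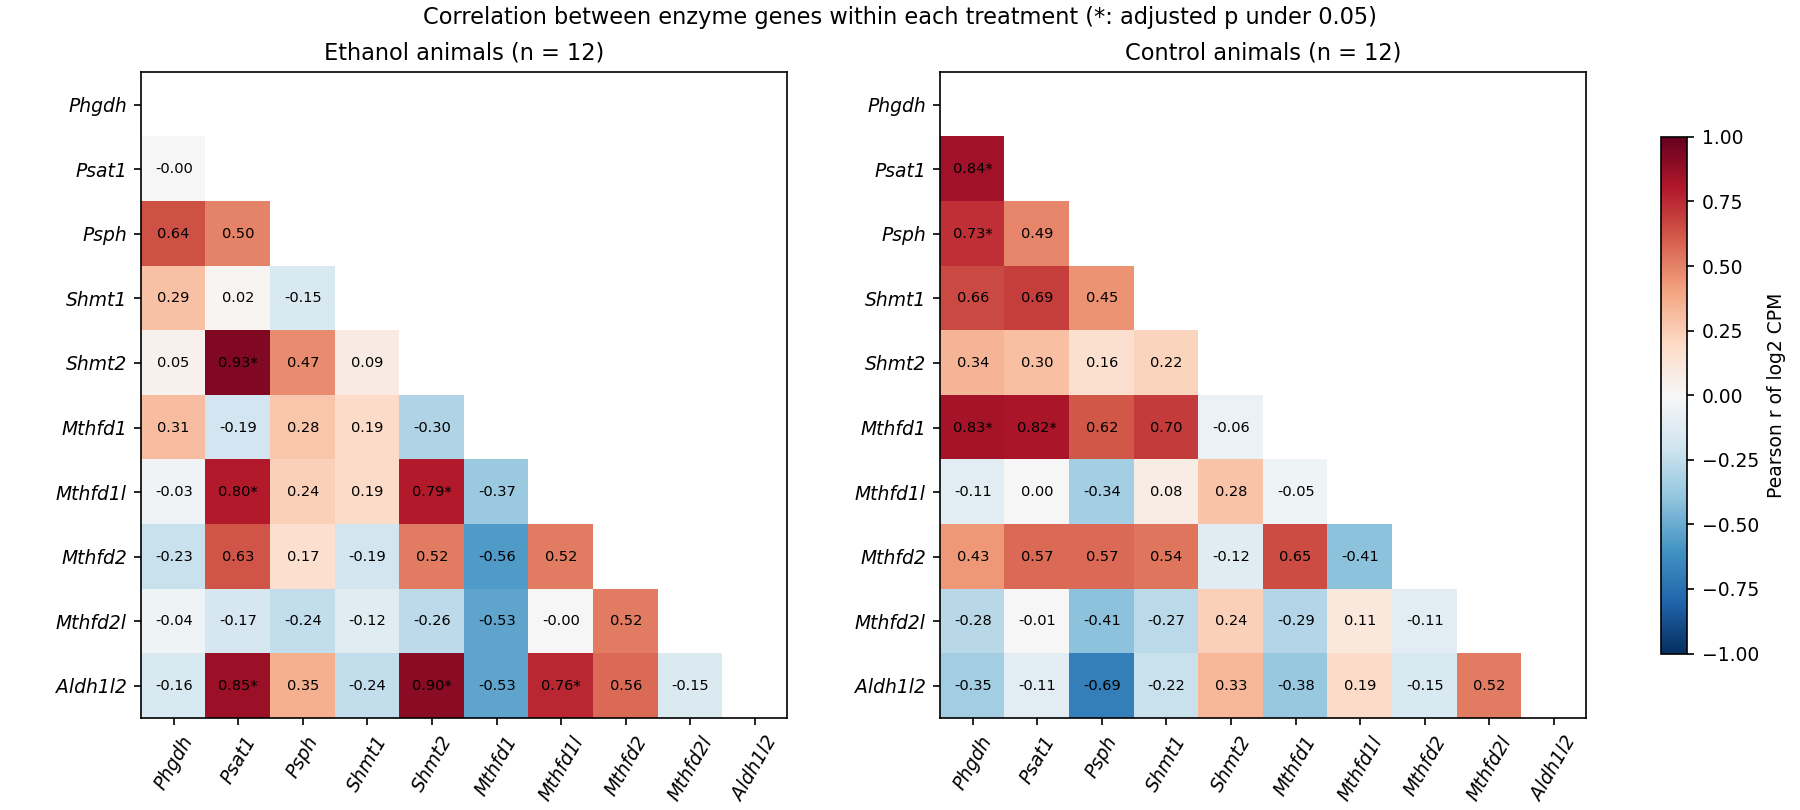
Pearson's r of log2 CPM for every pair of members over the 12 Ethanol (left) and 12 Control (right) animals; color and the number in each cell give r, and cells with an asterisk passed the permutation test after adjustment over 90 pairs. The asterisks are on the 6 pairs among Psat1, Shmt2, Aldh1l2 and Mthfd1l in Ethanol animals. In Controls they are on 4 pairs, Phgdh with Psat1, Mthfd1 and Psph, and Psat1 with Mthfd1.

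Genes that followed the members most closely over all 24 libraries, once the mean of each treatment had been taken out, were found among 15405 genes by Pearson's r, as a description. Shmt2 and Aldh1l2 shared Asns, the asparagine synthetase (r = 0.92 and 0.89), and Slc7a3, a carrier of cationic amino acids (r = 0.89 and 0.91). Psat1 was followed by the leucyl-tRNA synthetase Lars (r = 0.86), Asns (r = 0.83) and the amino acid carrier Slc7a5 (r = 0.81), and Mthfd2 by the isoleucyl-tRNA and threonyl-tRNA synthetases Iars (r = 0.85) and Tars (r = 0.84) and the stress-induced Sesn2 (r = 0.84). Phgdh kept other company, with Slc35a4 (r = 0.90), Lxn (r = 0.90) and Mad2l2 (r = 0.88) nearest. Shmt1 was nearest to Cdca3 (r = 0.81) and Mthfd1 to Rpn2 (r = 0.95). The points share library depth and composition, so no p-value is given.

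Lists of genes around these enzymes, 7 in number, were counted in the same fit. Of their 76 genes, 70 were tested, 15 were past the test and higher in Ethanol animals, 4 were past it and lower and 51 did not pass, with a median log2 fold change of 0.01. That was 21.4% higher and 5.71% lower, against 9.07% and 5.8% of all genes. Without the regulators 7 of 61 were higher, 11.5%, and 4 were lower, 6.56%, both near the shares of all genes. Of the 15, 8 were transcription factors, from a list of 9 written from general knowledge as possible regulators of such enzymes. Whether each of the 9 acts on these enzymes in this tissue was not tested. The other 7 came from the lists of folate enzymes, folate carriers, glycine cleavage, methionine metabolism and serine use.

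Among the 10 other folate enzymes tested, 2 were higher and 1 was lower. Mthfs, which returns formyl-folate to the pool, averaged 3.19 CPM in Ethanol animals and 3.91 CPM in Controls (log2 fold change -0.29, SE 0.06, edgeR adjusted p = 0.00192). Mtfmt, which formylates the mitochondrial initiator tRNA, was higher at 0.14 (edgeR adjusted p = 0.0235), and this call was lost without the filter (adjusted p = 0.0516), without the 4 libraries low in choroid plexus RNA (0.0871) and without Ethanol X4568 (0.0593), X4569 (0.0576) or X4758 (0.052) or Control X4762 (0.0546). Of the 5 folate carriers, Slc25a32, which brings folate into mitochondria, was higher in 12 of 12 Ethanol animals than the Control median, at 14.9 CPM in Ethanol animals and 12.4 CPM in Controls (0.27, SE 0.05, adjusted p = 0.000913). The other 4 did not pass.

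In the mitochondrial glycine cleavage system, the other source of folate-bound carbon, Amt was higher (0.11, edgeR adjusted p = 0.0226) and Gcsh lower (-0.11, adjusted p = 0.0391), and 2 of 4 members did not pass. Neither call held without the 4 libraries low in choroid plexus RNA, with adjusted p of 0.0702 for Amt and 0.176 for Gcsh, and Gcsh lost its call without the filter (0.0898) and Amt without Ethanol X4568 (0.0576). Gcsh also lost it in 11 of 24 fits without 1 animal, those without Ethanol X4568, X4683, X4694, X4765 or X4766 or Control X4570, X4571, X4679, X4686, X4697 or X4761, with adjusted p of 0.0515 to 0.073 (edgeR). Of 13 purine synthesis genes, which use formyl-folate, 2 were lower and 11 did not pass. These were Adss, at 89.7 CPM in Ethanol animals and 96 CPM in Controls (-0.10, adjusted p = 0.00639), and Gmps (-0.10, adjusted p = 0.0167, but 0.0804 without the 4 libraries). Of 13 tested genes of the methionine cycle and transsulfuration, 2 were higher. Cbs, which joins serine to homocysteine, averaged 50.8 CPM in Ethanol animals and 41.8 CPM in Controls (0.28, SE 0.06, adjusted p = 0.00175), and Mtrr, which keeps methionine synthase active, averaged 18.5 CPM in Ethanol animals and 15.9 CPM in Controls (0.22, SE 0.04, adjusted p = 0.000877).

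Of 16 tested genes that use or carry serine, 1 was higher. This was the serine and alanine carrier Slc1a4 (0.08, SE 0.03, adjusted p = 0.0274, edgeR), whose call was lost with upper-quartile scaling (0.0761), without the filter (0.0589) and without Ethanol X4568 (0.0829), X4681 (0.0566) or X4692 (0.0715) or Control X4695 (0.0553) or X4762 (0.0665). Among the regulators, Cebpg, a partner of ATF4, averaged 75.3 CPM in Ethanol animals and 51.4 CPM in Controls without overlap (0.55, SE 0.05, adjusted p = 4.36e-08). Atf4 itself averaged 167 CPM in Ethanol animals and 143 CPM in Controls (0.22, SE 0.05, adjusted p = 0.00264), with 11 of 12 Ethanol animals above the Control median. Myc and Mycn, which drive serine and folate genes in tumor cells, were higher by 0.41 (adjusted p = 4.28e-05) and 0.26 (adjusted p = 0.000281). Ddit3, Atf5, Nfe2l2 and Cebpb were also higher, by 0.39, 0.68, 0.22 and 0.42, and Bach1 did not pass (0.04). The regulators were listed with earlier results of these animals known, so their count is not independent evidence of a direction.

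**Figure D5:**
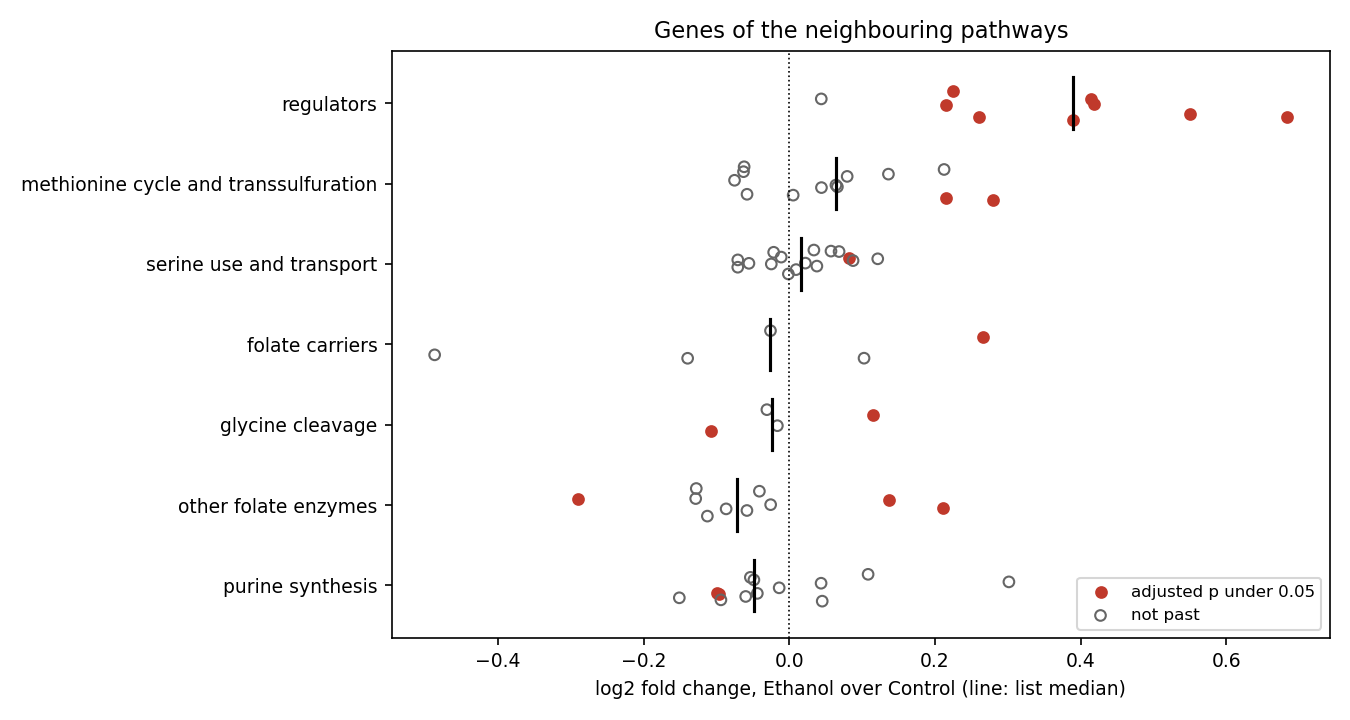
Log2 fold change, Ethanol over Control (horizontal axis), of each tested gene in the 7 lists around the enzymes (rows); filled points were past the test, open points were not, and a line marks the median of a list. The median of the regulators lies at 0.39, with 8 of 9 filled, and that of purine synthesis at -0.05, with 11 of 13 open.

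Markers of other cell types were read in the same fit, and every marker listed passed the filter on low counts. The summed level of 8 choroid plexus markers, of which Ttr is one, ranged over 135 to 5949 CPM in Ethanol animals and 124 to 5932 CPM in Controls. Without the 4 libraries low in Ttr, Mthfd2, Aldh1l2, Shmt2 and Psat1 remained past the test. Of 12 astrocyte and Bergmann glia markers 6 were higher and 2 lower, with summed levels of 4826 to 5434 CPM in Ethanol animals and 4365 to 4958 CPM in Controls, and of 6 endothelial markers 3 were lower, with sums of 302 to 342 CPM in Ethanol animals and 338 to 378 CPM in Controls. The part of cell composition in the differences of the enzymes was not tested. Of 16 S phase genes 1 was higher, 1 lower (6.25% each, against 9.07% and 5.8% of all genes) and 14 did not pass.

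Some members share sequence with other genes, which bears on how their reads were assigned. Of the 31-base words in the longest coding transcript of Phgdh (GENCODE M21), 74.1% also occur in another of 26 genes, most in the processed pseudogene Gm7901, which had 1.48 CPM in Ethanol animals and 1.37 CPM in Controls. Aldh1l2 shares 17.1% of its words with D10Wsu102e on the opposite strand, which had 71.6 ± 2.48 CPM in Ethanol animals and 72.6 ± 2.04 CPM in Controls (log2 fold change -0.02, edgeR adjusted p = 0.618). Psph shares 24.8% with Cct6a and Shmt1 5.45% with Smcr8, both also on the opposite strand, and Mthfd2 shares none. Smcr8 was higher in Ethanol animals (log2 fold change 0.20, edgeR adjusted p = 0.0062). The strand setting of the counting is not given in the sources used here, so reads of these antisense pairs could have been divided between them. Gm7901 carries the Phgdh words in the same orientation, so reads of that pair could have been divided under any strand setting. Estimated counts were fractional, by more than 0.01, in 100% of the values of Aldh1l2 and Psph. The share was 95.8% for Phgdh, 33.3% for Shmt1 and 0% for every other member. How many reads were divided, and with which gene, was not measured. The values of Phgdh, Aldh1l2, Psph and Shmt1 are uncertain to that extent.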

How the data were processed

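Whole-tissue poly(A) RNA of 12 Ethanol and 12 Control pups was sequenced. The authors ran nf-core/rnaseq and deposited estimated counts for each gene. STAR, Salmon, limma and the build GRCm39 appear in the submitters' processing notes, without versions; the annotation release was not given in the sources used here. A share of 10.9% of the values differed by more than 0.01 from the nearest whole number, and all were rounded before testing. Every column matched an animal label (0 were left unmapped).

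Genes were filtered with filterByExpr, scaled by TMM and compared by the quasi-likelihood test of edgeR 4.0.16, run under R 4.3.3 (22 residual degrees of freedom, adjusted p threshold 0.05), Ethanol against Control over all 24 libraries. CPM use TMM library sizes, and log2 CPM a prior count of 2. The script was tested on simulated data. Correlations used 100000 permutations in Python 3.11.15 (numpy 2.4.6, scipy 1.17.1, pandas 2.3.3). Promoters came from RefSeq (GRCm38.p6) and transcript lengths from GENCODE M21; the counts were made on another build, so nothing was joined by coordinates. Plots were drawn with matplotlib 3.10.9.

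The members, gene lists and markers were chosen with earlier results of these data known. The genes named are the 10 members, list genes past the test (1 of them is not reported here) and the 3 genes most like each member. Alternatives were RLE and upper-quartile scaling, no filter or a filter of 1 CPM, limma 3.58.1, DESeq2 1.42.0, runs of animal numbers as a block, leaving out the 4 libraries low in Ttr or each animal in turn, and, for the pairs, a prior count of 0.5 or Spearman's rho. The 4 libraries were set apart by a log2 CPM of Ttr under 4. The study's methods drew 2 Ethanol and 2 Control pups from each of 6 litters, as many as the runs, but no source used here assigns an animal to a litter, and littermates may not be independent.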

Additional observations from a re-analysis of the deposited data

How the results depend on the processing

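Psat1, Shmt2, Mthfd2 and Aldh1l2 were past the test and higher in Ethanol animals under all 8 other settings and in all 24 fits without 1 animal, with log2 fold changes over those fits of 0.18 to 0.22 for Psat1, 0.35 to 0.44 for Shmt2, 0.78 to 0.88 for Mthfd2 and 0.51 to 0.66 for Aldh1l2. Phgdh was lost in the fits named above, so that 4 to 5 members were called. Psph, Shmt1, Mthfd1, Mthfd1l and Mthfd2l did not pass under any setting run. Among all genes 1608 were higher and 1028 lower. Upper-quartile scaling gave 1373 higher and 1396 lower, and 662 genes were lower without the filter and 612 without the 4 libraries low in Ttr. Of the genes in the 7 pathway lists, 2 were lower without those libraries, in place of 4. Of the member pairs, 3 in Ethanol and 0 in Control animals passed by Spearman's rho, in place of 6 and 4. For these changes the cause was not tested. No paired analysis was possible because no number is shared between Ethanol and Control animals and no source used here says which litter an animal came from. With the runs of 4 as a block, the 5 called members stayed past the test. The lowest level of a member in an animal was 15.0 CPM, of Psph. Ages, sexes and litters could not be separated, and DESeq2 gave 1779 higher and 1223 lower genes.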

Other observations

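The members that did not pass the test had other nearest genes, over the 24 libraries with the mean of each treatment taken out. Psph was nearest to Myl4 (r = 0.83), Svbp (r = 0.72) and Brd3os (r = 0.71), and Mthfd2l to Nanos2 (r = 0.75) and Clmp (r = 0.71). For Mthfd1l the nearest, Tut4, Mamstr and Gm14339, were at r = 0.68 each. Mthfd1 was nearest to Rpn2 (r = 0.95), Hat1 (r = 0.93) and Ywhaq (r = 0.91), and Shmt1 to Cdca3, Bloc1s5 and Rfc5 (r = 0.81 for each). Of the 12 genes nearest to the called members, 7 were past the test and higher in Ethanol animals, against 9.07% of all genes tested. The other 5 did not pass (Slc35a4, Lxn and Mad2l2, nearest to Phgdh, and Slc7a5 and Pycr1). These 12 were picked by correlation over the same 24 libraries, so their count and adjusted p are not independent evidence of a direction. Slc7a3 was higher in Ethanol animals by 1.18 on the log2 scale (edgeR adjusted p = 0.000716), Asns by 0.51 (adjusted p = 0.001), Iars by 0.33 (adjusted p = 7.83e-08), Sesn2 by 0.50 (adjusted p = 9.97e-05), Tars by 0.15 (adjusted p = 0.000685), Trim66 by 0.99 (adjusted p = 0.00332) and Lars by 0.12 (adjusted p = 0.0134).

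Aldh1l1, the cytosolic counterpart of Aldh1l2 and a common astrocyte marker, averaged 297 CPM in Ethanol animals and 315 CPM in Controls (log2 fold change -0.09, edgeR adjusted p = 0.156). Of the 6 Purkinje cell markers 2 were lower, of 8 granule precursor markers 2 were higher and 1 lower, and of 7 microglia markers 2 were higher and 1 lower, with summed levels of the microglia list of 146 to 228 CPM in Ethanol animals and 143 to 190.3 CPM in Controls. Gfap, the astrocyte filament gene, was higher by 0.99 on the log2 scale (edgeR adjusted p = 0.000643). It is 1 of 12 astrocyte and Bergmann glia markers, of which 6 were higher, 2 lower and 4 not past the test. The 2 lower ones were Gdf10 (-0.25, edgeR adjusted p = 0.000395) and Hopx (-0.15, edgeR adjusted p = 0.00338).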
